A study of Mus musculus with 29 samples.

Results

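Colitis induced by an agonistic antibody against CD40 was examined in the colon RNA of 6 mice, taken from a series of 29 mice with different colitis models and their controls. Of these mice, 3 (numbered 6, 7 and 8) had received 50 µg of the antibody intraperitoneally and were culled after 7 days, and 3 (numbered 2, 3 and 4) were untreated. Both groups are labelled C57BL/6 Rag1-/-, a genotype without mature T and B cells, so both lack the usual source of CD40 ligand and of adaptive effector cells. The labels name neither an isotype antibody nor a sham injection for the controls, and they give no age, sex or time of day. Bulk poly(A) RNA of colon segments was sequenced, 1 library per mouse, and the 18616 genes whose counts averaged 3 or more across the series were tested. For comparison, 4 untreated TRUC mice (labelled Balb/C Tbx21-/- x Rag2-/-, which develop colitis spontaneously) and 3 untreated Balb/C Rag2-/- mice were used. No source gives the cage or litter of a mouse, so the p values measure the spread between single mice. That spread was estimated in 1 fit of all 29 mice of the series, not from the 6 mice alone.

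CD40 is a receptor of the tumour necrosis factor (TNF) family on macrophages, dendritic cells and B cells. It is normally engaged by CD40 ligand on T cells and signals through TRAF adaptors to NF-κB. In mice without T and B cells an agonistic antibody bypasses the T cell, and the activated myeloid cells release IL-12, IL-23 and TNF. These in turn drive natural killer (NK) cells and innate lymphoid cells (ILC) to make interferon-gamma (IFN-γ), IL-22 and IL-17. IFN-γ acts through gamma-activated sites (GAS) in promoters and induces IRF1, which binds interferon-stimulated response elements (ISRE), in a programme of immunity-related GTPases, antigen presentation and chemokines.

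The genotype labels were checked first. Rag1 had at most 4 counts in any of the 6 libraries, as it did in every other group of the series except the T-cell transfer mice. Rag2 was read at 1.30, 0.442 and 1.72 CPM (counts per 1000000 of the TMM-normalised library size) in control mice 2, 3 and 4 and at 4.51, 8.49 and 3.44 CPM in anti-CD40 mice 6, 7 and 8, the order kept for all values below. The T-cell transfer mice, which carry the same Rag1-/- label, had 0 for Rag2 and 1.85 to 2.88 CPM for Rag1. H2-Ea-ps belongs to the class II E-alpha locus, whose promoter is deleted in C57BL/6 mice. It was at 78.5, 74.5 and 67.7 CPM in controls and 236, 194 and 168 CPM in anti-CD40 mice, at 69.4 to 110.4 CPM in Rag2-/- mice and 243 to 318 CPM in TRUC mice, but at no more than 0.104 CPM in the other 5 groups, the T-cell transfer mice included. Trim12a was at most at 0.0811 CPM in these 4 groups and at 29.02 to 105.1 CPM in the other 5. Of those 5 groups, all but the T-cell transfer mice (untreated, DSS, DNBS and IL-10 antibody mice) are labelled Balb/C. Low H2-Ea-ps therefore did not follow the C57BL/6 label across the series. In these genes the 6 libraries went with those labelled Rag2-/- and not with the T-cell transfer mice labelled Rag1-/-, so the strain and genotype are given below only as labels. Tbx21, deleted in TRUC mice by their label, was at 2.12 to 4.63 CPM in those 4 libraries (26 to 52 counts) and at 0.0765 to 0.529 CPM in Rag2-/- mice, and gene counts do not show which exons these reads came from. TRUC is therefore also used only as a label. Results were also computed against the Rag2-/- mice, and where a gene described below lost its call in that comparison this is said beside it. The T-cell receptor chain gene Cd3e had at most 1 count in any of the 6 libraries.

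Total counts ran from 11079556 to 14266555 per library, so a count of 0 allows up to 3 counts, or 0.215 to 0.282 CPM. These limits cover counting error only. The first principal component of the 6 libraries (65.7% of the variance) separated the groups, with controls between -57.2 and -50.1 and anti-CD40 mice at 57.7, 73.8 and 27.7. Anti-CD40 mouse 8 stood apart on the second component (-43.5) and held more muscle RNA: the smooth muscle list summed to 8426 CPM in this mouse, the highest of the 6, against 5050.1 to 6084 CPM in controls. Anti-CD40 mouse 7 was the highest in neutrophil genes. In bulk colon, fewer cells of a type and less RNA per cell cannot be told apart.

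Injection of the antibody went with a broad change. In anti-CD40 mice 2029 genes were higher (10.9% of the genes tested) and 1986 lower (10.7%) at an adjusted p under 0.05, with edgeR's quasi-likelihood test and Benjamini-Hochberg adjustment over all genes. Groups did not overlap for 1954 of the genes called higher and 1891 of those called lower. These genes were picked by the test on the same values, so their separation is not separate support. The share without overlap over all genes tested is not given here. The shares of 10.9% and 10.7% are the ones to set beside the counts of list members below. The change was at least 2-fold for 763 higher and 928 lower genes, and the median log2 fold change of all tested genes was -0.03. Leaving out anti-CD40 mouse 7 left 928 higher and 821 lower genes, and leaving out control mouse 3 left 1124 and 1188. Against the Rag2-/- mice 2301 genes were higher and 2202 lower. Of the 2029 and 1986 calls, 1413 and 1230 were called in the same direction there, and 0 and 1 in the opposite direction.

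**Figure D1:**
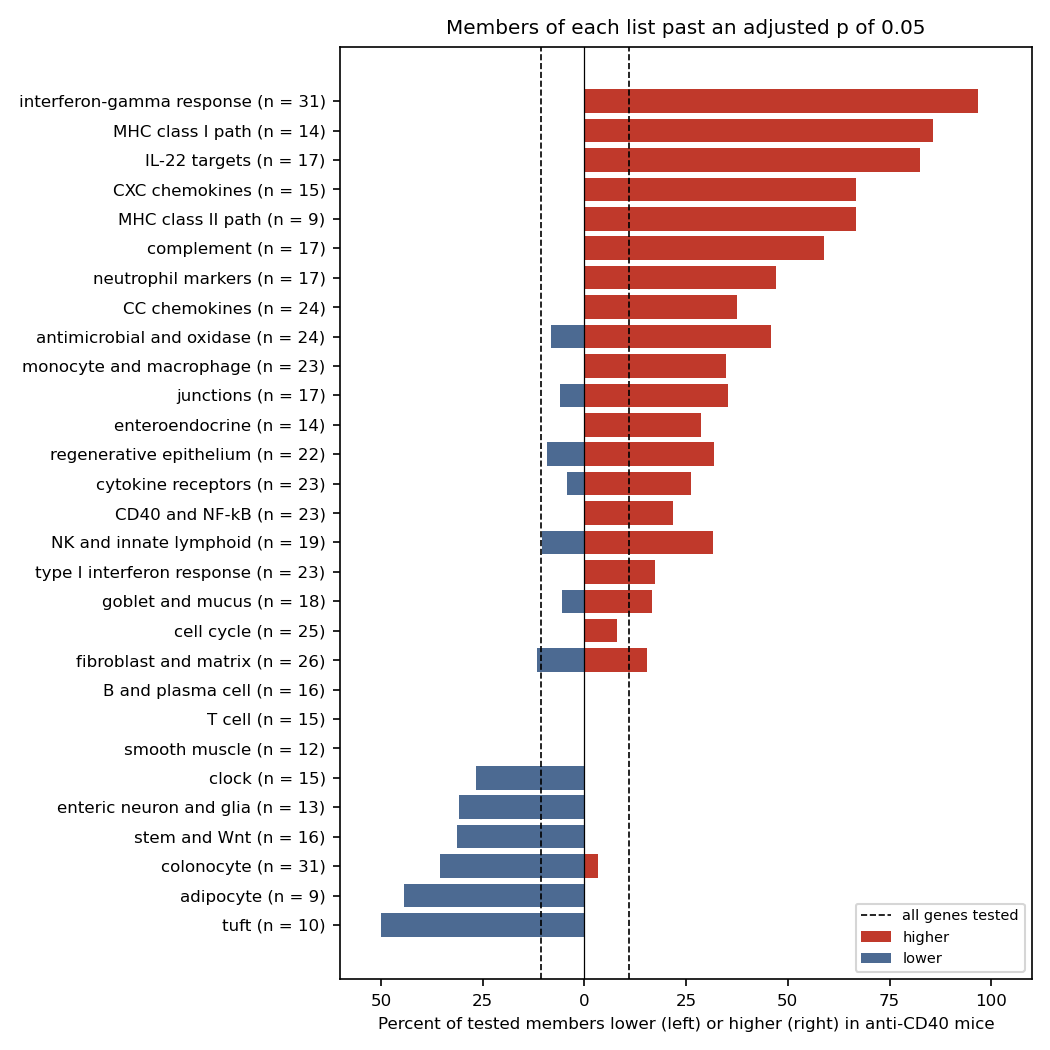
Share of the tested members past the threshold, higher (right) or lower (left) in anti-CD40 mice against controls, for a selection of the 42 lists. The number of tested members is beside each name. Lists not drawn include those of dendritic cell, mast cell, endothelium and pancreas genes. Dashed lines mark the share of all 18616 genes called higher (10.9%) and lower (10.7%). The IFN-γ response list stands at 96.8% higher, whereas tuft cell, adipocyte and colonocyte lists lie on the lower side. The lists were chosen with earlier results of these data known.

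By the share of members called, genes induced by IFN-γ stood highest of all 42 lists. The lists and their members were chosen with earlier results of these data known. Ranks and shares of lists, here and below, are therefore descriptive. All but 1 of the 31 tested members were higher in anti-CD40 mice (30 higher, 0 lower, 96.8% against 10.9% of all genes), with a median log2 fold change of 3.73. The exception, Cd274, encoding the checkpoint ligand PD-L1, was at 7.70, 10.3 and 8.43 CPM in controls and 46.0, 57.1 and 28.1 CPM in anti-CD40 mice (log2 fold change 2.31 ± 0.90, adjusted p = 0.0671; ± gives the standard error throughout). Its groups did not overlap, and it was called without the filter on low counts, in a fit of only the groups compared and with DESeq2 (adjusted p = 6.58e-18 to 0.0404). Ido1, encoding the tryptophan-degrading enzyme indoleamine 2,3-dioxygenase, is a classical IFN-γ target of myeloid and epithelial cells. It was at 0.73, 0.516 and 0.861 CPM in controls and at 295, 474 and 154 CPM in anti-CD40 mice (log2 fold change 8.77 ± 1.98, adjusted p = 0.00318). Its lowest treated mouse, mouse 8, was far above every control.

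Immunity-related GTPases, which attack the vacuoles of intracellular pathogens, rose together. Iigp1 was at 4.95, 7.15 and 6.45 CPM in controls and 424, 519 and 291 CPM in anti-CD40 mice (log2 fold change 6.05 ± 1.16, adjusted p = 0.000866). Igtp rose from 13.1, 13.1 and 10.7 CPM to 253, 316 and 187 CPM (log2 fold change 4.35 ± 0.98, adjusted p = 0.00318). Irgm1 and Irgm2, regulatory members of the family, changed by 2.55 ± 0.66 and 3.04 ± 0.65 on the log2 scale (adjusted p = 0.00798 and 0.00202). Gm4841 was at no more than 1 count in any control and at 17.0, 24.9 and 14.8 CPM in anti-CD40 mice, at least 78.4-fold higher (adjusted p = 0.00177). In each of these 5 genes mouse 8 was the lowest treated mouse and still above all controls. Tgtp1 and Tgtp2 also rose (6.82 ± 1.44 and 4.97 ± 1.002), but 81.2% and 86.6% of their 50-base windows occur in another gene, so reads may have been split between the pair.

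Guanylate-binding proteins, larger GTPases of the same defence, were called higher for all 9 tested members from Gbp2 to Gbp10. Gbp4 rose from 12.1, 13.9 and 15.2 CPM to 203, 236 and 110.4 CPM (log2 fold change 3.73 ± 0.92, adjusted p = 0.00572) and Gbp5 from 6.81, 4.94 and 8.26 CPM to 103, 105 and 60.5 CPM (log2 fold change 3.75 ± 0.94, adjusted p = 0.00672). Gbp2 had a wider spread, with 34.0, 23.5 and 73.4 CPM in controls and 267, 277 and 172 CPM in anti-CD40 mice (log2 fold change 2.45 ± 0.87, adjusted p = 0.0451), and its call was lost without control mouse 2 or 3 or anti-CD40 mouse 6 or 7 and against the Rag2-/- controls (adjusted p up to 0.165). Gbp6 and Gbp10 share 70.7% and 84.1% of their 50-base windows with other genes and cannot be read apart with certainty; their calls were lost without control mouse 3 or 4 (adjusted p up to 0.0555) and without control mouse 2 or 3 (adjusted p up to 0.0555).

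Transcription factors and feedback regulators of the pathway moved as well. Irf1 rose from 145, 154 and 179 CPM in controls to 407, 452 and 362 CPM (log2 fold change 1.35 ± 0.40, adjusted p = 0.0186), a call lost without control mouse 2 or 3 or anti-CD40 mouse 7 (adjusted p up to 0.0718). Socs1, the inhibitor that closes the loop at the receptor, rose from 3.81, 4.35 and 3.01 CPM to 57.6, 108 and 49.5 CPM (log2 fold change 4.25 ± 0.89, adjusted p = 0.0018). Batf2, a myeloid transcription factor, and Wars, the tryptophanyl-tRNA synthetase, changed by 2.26 ± 0.46 and 2.13 ± 0.49. For the list as a whole, leaving out 1 mouse gave 21 (without control mouse 3) to 30 (without anti-CD40 mouse 8) higher members, and 29 were higher against the Rag2-/- mice.

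**Figure D2:**
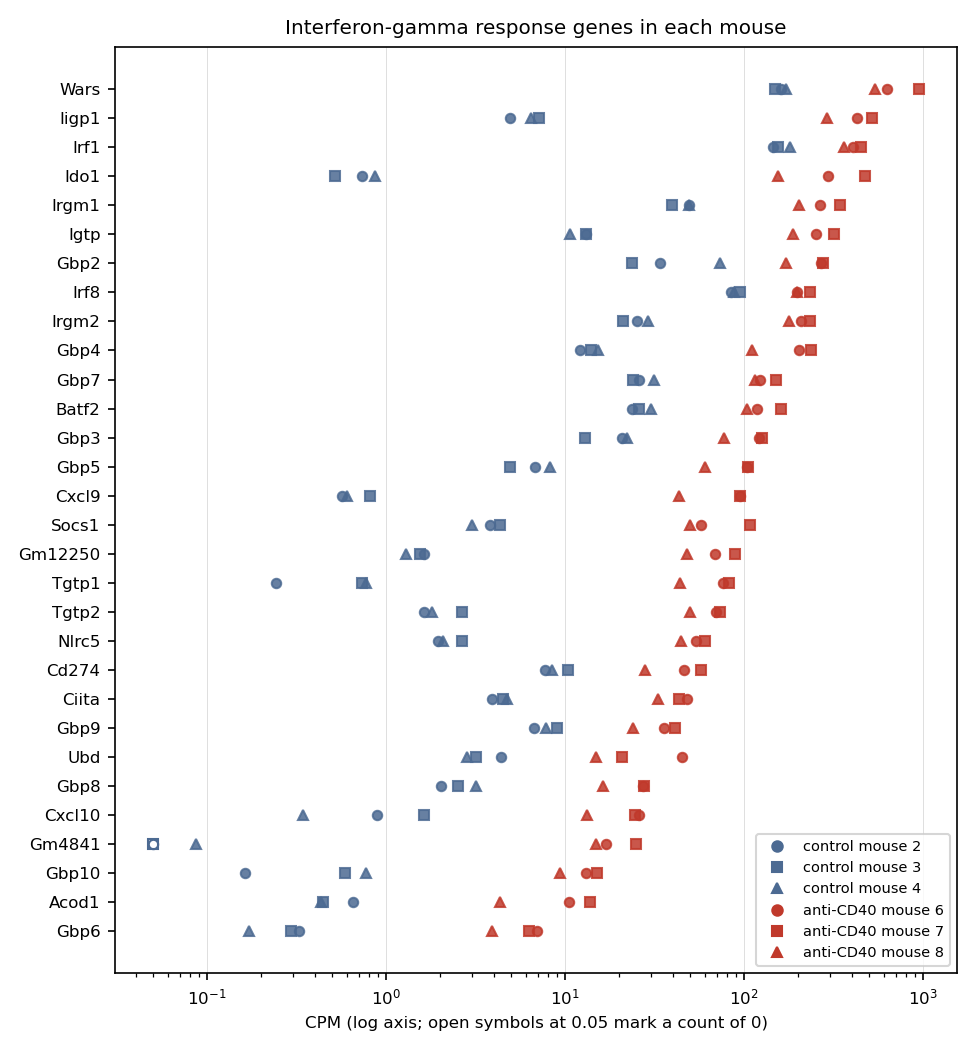
CPM of 30 of the 31 tested IFN-γ response genes in each of the 6 mice on a log axis, controls in blue and anti-CD40 mice in red, ordered by the mean in anti-CD40 mice. All 3 red points lie to the right of all 3 blue points in every row, and Ido1 (0.516 to 0.861 CPM against 154 to 474 CPM) shows one of the widest gaps.

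The sequence just upstream of these genes is shown because their members moved together. In the 250 bases before the RefSeq start (GRCm38.p6), available for 18 of the 31 genes, GAS (TTCNNNGAA) was found on either strand in 9 and ISRE (GAAA, any 2 bases and GAAA again) in 12. Over the 27025 genes with such a window, GAS was found in 8.13% and ISRE in 3.46%. The windows of the list are not independent. The 12 bases before the motifs are nearly alike in Igtp, Irgm2, Tgtp1 and Tgtp2 below, so related sequences are counted more than once. Both motifs lay in 7 windows of the list, in 0 of which they shared bases. In 4 immunity-related GTPases of chromosome 11 the motifs lay side by side, with the first base of ISRE 11 bases after that of GAS. The stretches below run 5′ to 3′ in the direction of the gene, with 12 bases on each side and the motif letters in capitals:
Igtp, chr11:58199499-58199543, plus strand: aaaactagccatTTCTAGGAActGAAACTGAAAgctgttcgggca
Irgm2, chr11:58214890-58214934, plus strand: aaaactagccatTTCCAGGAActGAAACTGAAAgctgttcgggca
Tgtp1, chr11:48992302-48992346, minus strand: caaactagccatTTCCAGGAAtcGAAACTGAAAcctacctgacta
Tgtp2, chr11:49064261-49064305, minus strand: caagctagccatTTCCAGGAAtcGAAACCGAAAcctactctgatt
Gm12250, chr11:58183770-58183818, plus strand: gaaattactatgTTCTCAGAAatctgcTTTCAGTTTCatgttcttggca
Irf1, chr11:53769912-53769944, plus strand: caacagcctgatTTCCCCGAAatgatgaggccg
Irgm1, chr11:48871423-48871456, minus strand: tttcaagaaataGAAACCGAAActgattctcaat
Socs1, chr16:10785592-10785625, minus strand: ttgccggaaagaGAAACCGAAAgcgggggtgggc
Gbp2, chr3:142620592-142620625, plus strand: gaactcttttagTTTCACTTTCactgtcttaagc
Cxcl10, chr5:92349081-92349114, minus strand: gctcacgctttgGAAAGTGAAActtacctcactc
In Igtp the GAS began at -45 and the ISRE at -34 from the start, in Irgm2 at -75 and -64, in Tgtp1 at -88 and -77 and in Tgtp2 at -81 and -70. In Gm12250, another GTPase of the family, the distance was 15 bases. Irf1 had a GAS alone (-90), and Irgm1, Socs1, Gbp2 and Cxcl10 an ISRE without GAS in the stretch shown, at -24, -77, -59 and -213. Of 17 type I interferon genes with a window, which are mostly not called in these data, 3 held GAS and 8 held ISRE, and of 10 IL-22 target genes 2 held GAS and 1 held ISRE. Of 23 colonocyte genes 1 held GAS and 1 held ISRE. A match describes letters only, and binding was not measured.

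Genes most often used as markers of type I interferon were mostly not called. Of 23 tested members, 4 were higher and 0 lower (17.4% higher, against 10.9% of all genes), with a median log2 fold change of 0.93. The members called were Ifit2 (15.2, 18.05 and 14.1 CPM against 186, 229 and 74.1 CPM, log2 fold change 3.37 ± 0.89, adjusted p = 0.00965), Bst2, Oas2 and Ifi44. Oas2 and Ifi44 each lost their call without control mouse 3 (adjusted p = 0.0718 and 0.0603). Rsad2, encoding viperin, was at 17.4, 23.9 and 12.8 CPM in controls and 15.9, 23.6 and 11.3 CPM in anti-CD40 mice, with overlapping groups. Mx1 (0.40 ± 0.55) and Irf7 (0.25 ± 0.46) did not differ beyond their errors. Isg15 was at 24.3, 13.9 and 18.1 CPM and 52.1, 61.2 and 27.6 CPM (log2 fold change 1.32 ± 0.75, adjusted p = 0.212), without overlap, and was called in a fit of only the groups compared and with DESeq2 (adjusted p = 1.74e-05 to 0.00829). The count of this list depended on the fit: it was 2 without control mouse 3, 14 with DESeq2 and 15 in a fit of only the groups compared. Ifnb1 had 0 counts in all 6 libraries.

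Antigen presentation rose in both branches. Of 14 genes of the class I path 12 were higher (85.7%), and of 9 genes of the class II path 6 were. Nlrc5, the transactivator of class I genes, was at 1.95, 2.65 and 2.07 CPM in controls and 53.9, 60.4 and 44.1 CPM in anti-CD40 mice (log2 fold change 4.56 ± 0.79, adjusted p = 0.000368). Tap1, which pumps peptides into the endoplasmic reticulum, rose from 36.4, 43.6 and 36.9 CPM to 319, 354 and 249.9 CPM (log2 fold change 2.98 ± 0.63, adjusted p = 0.002). The immunoproteasome subunits Psmb8, Psmb9 and Psmb10 changed by 2.32 ± 0.50, 2.85 ± 0.51 and 1.57 ± 0.32, and the heavy chain H2-K1 and the light chain B2m by 1.35 ± 0.25 and 1.41 ± 0.35. H2-T23 and H2-M3, non-classical class I genes, were not called (adjusted p = 0.102 and 0.115).

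On the class II side, Ciita, the master transactivator, rose from 3.89, 4.49 and 4.73 CPM to 47.8, 43.3 and 32.9 CPM (log2 fold change 3.24 ± 0.49, adjusted p = 9.13e-05). Its target Cd74, the invariant chain, was at 88.2, 109.9 and 109.7 CPM in controls and 771, 521 and 552 CPM in anti-CD40 mice (log2 fold change 2.58 ± 0.42, adjusted p = 0.000208). H2-Ab1 rose from 58.0, 58.0 and 54.4 CPM to 315, 275 and 253 CPM (log2 fold change 2.31 ± 0.36, adjusted p = 0.000133). The peptide-loading genes H2-DMa and H2-DMb1 changed by 2.52 ± 0.39 and 2.67 ± 0.55. H2-Oa and H2-Ob, which inhibit this loading, stayed near the limit of detection (0.282, 0.343 and 0.144 and 0.752, 1.11 and 1.15 CPM in anti-CD40 mice) and were not called. H2-Aa was at 236, 114 and 147 CPM against 73.7, 66.9 and 64.2 CPM in controls, and its call was lost without control mouse 3 or 4 or anti-CD40 mouse 6 (adjusted p up to 0.12).

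Cytokine transcripts themselves were scarce. Ifng had 0 counts in every control and 0.752, 1.63 and 0.359 CPM in anti-CD40 mice, at least 3.79-fold higher but not called (adjusted p = 0.156), and 19.9% of its 50-base windows occur in another gene. Il22 likewise had 0 counts in every control and 0.939, 2.14 and 0.574 CPM in anti-CD40 mice (at least 5.06-fold, adjusted p = 0.0741). Mouse 7 was the highest for both. These results depended on the fit: Ifng was called in a fit of only the groups compared and with DESeq2 (adjusted p = 0.000516 to 0.00855), and Il22 without the filter on low counts, in a fit of only the groups compared and with DESeq2 (adjusted p = 7.73e-05 to 0.0473). Il12b, encoding the p40 subunit shared by IL-12 and IL-23, was at 0, 0 and 0.0861 CPM and 0.658, 0.686 and 0.431 CPM (adjusted p = 0.116), and was called in a fit of only the groups compared (adjusted p = 0.00769). Il23a, the specific subunit of IL-23, had at most 4 counts in any control and 3 in any anti-CD40 mouse, so a change was not detectable at this depth. Il17a was read once, in mouse 7.

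Of the tested upstream cytokines 3 of 15 were higher and 1 lower. Tnf was at 0.324, 2.36 and 1.03 CPM in controls and 15.03, 16.5 and 12.1 CPM in anti-CD40 mice (log2 fold change 3.52 ± 0.87, adjusted p = 0.00599). Lif, an IL-6 family cytokine, rose from 4.54, 5.97 and 4.22 CPM to 16.1, 18.3 and 12.5 CPM (log2 fold change 1.66 ± 0.37, adjusted p = 0.00291). Il1b was called (log2 fold change 2.94 ± 1.004, adjusted p = 0.0386) with 6.76, 19.3 and 4.23 CPM in anti-CD40 mice, but lost its call without control mouse 2, 3 or 4 or anti-CD40 mouse 7 (adjusted p up to 0.245). Il33, an alarmin of stromal and epithelial cells, went the other way, from 10.9, 20.997 and 17.8 CPM to 2.07, 3.34 and 2.08 CPM (log2 fold change -2.73 ± 0.56, adjusted p = 0.00146). Il18, abundant in epithelium, was at 137, 154 and 208 CPM and 192, 132 and 158 CPM, with overlapping groups. Ltb, encoding lymphotoxin beta, was the 1 effector cytokine called in this fit of the 10 tested (2.59, 3.24 and 2.24 CPM against 9.68, 12.4 and 6.67 CPM, log2 fold change 1.82 ± 0.43, adjusted p = 0.00435). That count was 2 without the filter on low counts and 3 in a fit of only the groups compared or with DESeq2.

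The injected antibody's own receptor rose. Cd40 was at 0.811, 1.18 and 1.29 CPM in controls and 6.76, 7.72 and 4.88 CPM in anti-CD40 mice (log2 fold change 2.55 ± 0.62, adjusted p = 0.00545), whereas Cd40lg had 0 counts in all 6. Of 23 tested genes of CD40 and NF-κB signalling 5 were higher and 0 lower (21.7%). Rel, the NF-κB subunit of activated leukocytes, rose from 10.7, 10.6 and 14.2 CPM to 36.4, 48.2 and 41.0 CPM (log2 fold change 1.82 ± 0.25, adjusted p = 3.51e-05), and the inhibitor Tnip3 from 51.4, 49.1 and 47.2 CPM to 173, 186 and 159 CPM (log2 fold change 1.81 ± 0.25, adjusted p = 4.71e-05). The remaining calls, Nfkbia (1.16 ± 0.32) and Tnfaip3 (0.99 ± 0.32), are feedback inhibitors as well. That of Nfkbia was lost without control mouse 4 or anti-CD40 mouse 7 (adjusted p up to 0.0631), and that of Tnfaip3 without control mouse 2, 3 or 4 or anti-CD40 mouse 6 or 7 and against the Rag2-/- controls (adjusted p up to 0.123). The adaptors Traf2, Traf3 and Traf6 and the kinase gene Map3k14 differed by 0.19, 0.17, 0.25 and -0.04, and none was called (adjusted p of at least 0.305). The count was 3 without anti-CD40 mouse 7 and 10 in a fit of only the groups compared or with DESeq2.

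Among receptors, 6 of 23 were higher and 1 lower (26.1% and 4.3%, against 10.9% and 10.7% of all genes). Tnfrsf1b, the TNF receptor of leukocytes, was at 27.1, 34.3 and 38.0 CPM in controls and 159, 231 and 171 CPM in anti-CD40 mice (log2 fold change 2.50 ± 0.39, adjusted p = 0.000123). Il18bp, a soluble decoy for IL-18 and itself inducible by IFN-γ, rose from 4.62, 3.83 and 6.80 CPM to 79.9, 77.3 and 49.3 CPM (log2 fold change 3.76 ± 0.79, adjusted p = 0.00192). Osmr, the oncostatin M receptor, rose from 8.67, 12.3 and 12.7 CPM to 45.6, 48.2 and 44.6 CPM (log2 fold change 2.04 ± 0.32, adjusted p = 0.000151), although its ligand gene Osm stayed at or below 1.03 CPM. Il1r1 was lower (33.2, 31.4 and 28.1 CPM against 15.2, 11.7 and 16.003 CPM, log2 fold change -1.11 ± 0.21, adjusted p = 0.000713). Il22ra1, the epithelial IL-22 receptor chain, was at 53.7, 53.3 and 70.4 CPM and 42.7, 65.6 and 67.5 CPM and did not differ beyond its error (-0.01 ± 0.19). Il22ra2, the IL-22 decoy receptor, was at 16.5, 13.6 and 13.1 CPM and 8.64, 3.52 and 2.22 CPM, without overlap but not called (log2 fold change -1.60 ± 0.63, adjusted p = 0.0689).

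Among the 12 largest rises in the data, most belong to the lists described here. Outside them, the TNF receptor family gene Tnfrsf8 (CD30, chr4:145267137-145315164 in GRCm38) was at 0.243, 0.368 and 0.172 CPM in controls and 81.5, 80.9 and 63.4 CPM in anti-CD40 mice (log2 fold change 8.09 ± 0.92, adjusted p = 6.42e-06). CD30 is known as a marker of activated lymphocytes. Clec4e, encoding the myeloid pattern recognition lectin Mincle, was at no more than 1 count in any control and at 12.2, 10.5 and 3.52 CPM in anti-CD40 mice, at least 36.4-fold higher (adjusted p = 0.00265). Cxcl5 also belongs to the 12 (0, 0.0737 and 0.258 CPM against 11.6, 38.1 and 6.53 CPM).

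Chemokine genes rose in both families. Of 15 tested CXC ligands and receptors 10 were higher and 0 lower (66.7% higher, against 10.9% of all genes). Cxcl9, which attracts NK and T cells through CXCR3, was at 0.567, 0.81 and 0.602 CPM in controls and 95.3, 94.7 and 43.2 CPM in anti-CD40 mice (log2 fold change 6.85 ± 1.41, adjusted p = 0.0016). Cxcl10 rose from 0.892, 1.62 and 0.344 CPM to 25.7, 24.6 and 13.3 CPM (log2 fold change 4.42 ± 1.20, adjusted p = 0.0112). Cxcl11 was at 0.0811, 0.295 and 0 CPM and 34.8, 27.6 and 11.6 CPM (log2 fold change 7.44 ± 1.34, adjusted p = 0.000524), with 41.7% of its exon bases overlapped by another gene model. Their receptor gene Cxcr3 was at 0.376, 0.943 and 0.574 CPM in anti-CD40 mice and not called (adjusted p = 0.241). The constitutive chemokines Cxcl12 (-0.11 ± 0.21), Cxcl14 (-0.29 ± 0.19) and Pf4 (-0.17 ± 0.41) did not differ beyond 2 standard errors. Cxcl14 was called lower against the Rag2-/- controls (log2 fold change -0.68, adjusted p = 0.0124).

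Of 24 CC genes 9 were higher (37.5%, against 10.9% of all genes). Ccl2 and Ccl7, ligands of the monocyte receptor CCR2, were at 15.97, 15.3 and 6.82 CPM and 27.9, 37.4 and 10.6 CPM in anti-CD40 mice, with controls at no more than 2.36 CPM (3.35 ± 0.73 and 4.97 ± 0.87). Ccl8 rose from 0.973, 1.33 and 1.12 CPM to 18.2, 23.6 and 12.7 CPM (log2 fold change 3.98 ± 0.55, adjusted p = 4.13e-05). Ccl22, made by dendritic cells and macrophages, rose from 0.811, 0.884 and 0.861 CPM to 9.86, 15.7 and 6.39 CPM (log2 fold change 3.62 ± 0.52, adjusted p = 6.33e-05). The epithelial chemokines Ccl25 and Ccl28 were not called (-0.42 ± 0.26 and -0.37 ± 0.25), nor was the eosinophil attractant Ccl11 (0.60 ± 0.42). Without anti-CD40 mouse 7 the counts of higher genes were 6 for the CXC and 5 for the CC list.

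Adhesion molecules that slow leukocytes on vessel walls rose, whereas general endothelial genes were not called. Vcam1 was at 11.5, 16.8 and 12.2 CPM in controls and 37.9, 34.8 and 29.6 CPM in anti-CD40 mice (log2 fold change 1.33 ± 0.24, adjusted p = 0.000596), and Icam1 at 6.73, 9.58 and 9.04 CPM and 44.4, 51.4 and 37.1 CPM (log2 fold change 2.39 ± 0.54, adjusted p = 0.00323). Selp and Madcam1 were called too (1.49 ± 0.41 and 1.18 ± 0.36), with calls lost without control mouse 2 or 3 or anti-CD40 mouse 7 (adjusted p up to 0.0638) and without control mouse 2 or 3 or anti-CD40 mouse 6 (adjusted p up to 0.0866) respectively. Pecam1 (-0.54 ± 0.22), Cdh5 (-0.53 ± 0.30) and Kdr (-0.50 ± 0.26) had estimates below 0 and were not called.

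Neutrophil genes rose with a wide spread between treated mice. Of 17 tested markers 8 were higher and 0 lower (47.1%). S100a8, a subunit of calprotectin, was at 0.324, 0.147 and 0.258 CPM in controls and 19.2, 130.2 and 20.95 CPM in anti-CD40 mice (log2 fold change 7.83 ± 1.11, adjusted p = 5.11e-05), and its partner S100a9 was at 0.162, 0 and 0.43 CPM and 7.33, 45.5 and 10.5 CPM (log2 fold change 6.74 ± 1.24, adjusted p = 0.000602). Mouse 7 exceeded the other treated mice several-fold in both. Ltf, encoding lactoferrin, was more even, at 72.9, 124 and 95.5 CPM against 0.405, 0.737 and 0.602 CPM (log2 fold change 7.36 ± 1.27, adjusted p = 0.00035). Granule genes of immature neutrophils were near or below the limit of detection: Elane had 0 counts in all 6, and Mpo, Ngp and Camp reached at most 0.502 CPM. Ly6g, a surface marker of neutrophils, was at 151, 193 and 292 CPM in controls, in which S100a8 was at most at 0.324 CPM, and at 599.8, 696 and 520.5 CPM in anti-CD40 mice (log2 fold change 1.52 ± 0.50, adjusted p = 0.0319). The groups did not overlap, but the call was lost without control mouse 2 or 3 or anti-CD40 mouse 6 or 7 and against the Rag2-/- controls (adjusted p up to 0.108). The count was 4 without anti-CD40 mouse 7 and 5 without control mouse 2 or 3.

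Monocyte and macrophage markers rose in part. Of 23 tested, 8 were higher and 0 lower (34.8% higher, against 10.9% of all genes). Genes of activation or recent entry were among those higher: Cd14, the lipopolysaccharide co-receptor, at 83.4, 67.4 and 123 CPM in controls and 483, 484 and 529 CPM in anti-CD40 mice (log2 fold change 2.45 ± 0.47, adjusted p = 0.000858), and Ccr2 at 4.38, 6.04 and 3.96 CPM and 16.1, 21.3 and 8.25 CPM (log2 fold change 1.65 ± 0.34, adjusted p = 0.00149). The call of Ccr2 was lost against the Rag2-/- controls (adjusted p = 0.0542). Lyz2, the macrophage lysozyme, rose from 229, 240.1 and 218 CPM to 607, 615 and 363 CPM (log2 fold change 1.21 ± 0.26, adjusted p = 0.00206), and F10, coagulation factor X, was at least 17.9-fold higher (adjusted p = 0.00502). Genes of resident macrophages were not called: Adgre1, encoding F4/80, was at 5.35, 11.8 and 8.52 CPM and 11.5, 13.5 and 9.83 CPM, and Cx3cr1, Mrc1 and Cd163 differed by 0.08 ± 0.27, -0.16 ± 0.31 and 0.22 ± 0.48. This depended on the controls: against the Rag2-/- mice Cd163 was called lower (log2 fold change -1.26, adjusted p = 0.0446). Of the 23 markers, 6 were higher and 2 lower there. The complement genes of these cells, C1qa, C1qb and C1qc, rose by 0.97 ± 0.18, 1.22 ± 0.22 and 1.07 ± 0.21. The count of higher genes was 4 without anti-CD40 mouse 7 and 5 without control mouse 3.

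Complement genes in all were higher for 10 of 17 (58.8%, against 10.9% of all genes). C3, the central component, was at 29.1, 71.6 and 63.4 CPM in controls and 351, 395 and 435 CPM in anti-CD40 mice (log2 fold change 2.85 ± 0.51, adjusted p = 0.000492). Cfd, an adipocyte gene also known as adipsin, was at 57.0, 99.5 and 54.9 CPM and 7.89, 28.3 and 48.0 CPM and was not called.

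Dendritic cell genes did not move one way. Of 13 tested, 3 were higher and 2 lower (23.1% and 15.4%, against 10.9% and 10.7% of all genes). Cd209a, a lectin of conventional dendritic cells, was at 1.22, 1.25 and 0.602 CPM in controls and 0, 0.171 and 0.0718 CPM in anti-CD40 mice, at least 4.07-fold lower (adjusted p = 0.000517). Xcr1 and Clec9a, markers of cross-presenting dendritic cells, differed by -0.36 ± 0.59 and -0.81 ± 0.40 and were not called. Clec9a was called lower against the Rag2-/- controls (log2 fold change -1.20, adjusted p = 0.0281). Itgax, encoding CD11c, was higher (1.26 ± 0.38) and Itgae, encoding CD103, lower (-0.86 ± 0.27), calls that were lost without control mouse 3 or anti-CD40 mouse 6 or 7 (adjusted p up to 0.0925) and without control mouse 2 or 3 or anti-CD40 mouse 6 or 7 (adjusted p up to 0.0957).

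Of 19 NK cell and ILC genes tested, 6 were higher and 2 lower (31.6% and 10.5%, against 10.9% and 10.7% of all genes), and the list summed to 159 to 200.3 CPM in controls and 159 to 185 CPM in anti-CD40 mice. Among the rises were cytotoxic genes of NK cells and group 1 ILC. Gzma, encoding granzyme A, was at 0.243, 0.295 and 0.258 CPM in controls and 25.4, 25.5 and 22.5 CPM in anti-CD40 mice (log2 fold change 6.47 ± 0.98, adjusted p = 0.000103). Gzmb was at least 29.6-fold higher, with 6.95, 7.55 and 6.89 CPM (adjusted p = 0.000229), and Prf1, encoding perforin, at least 10.8-fold higher, with 1.97, 3.77 and 2.08 CPM (adjusted p = 0.00211). The 3 treated mice lay within a narrow band for both granzymes, unlike for S100a8. Ncr1 and Klrk1, picked from the receptor genes of the same cells, were not called, and other receptor genes are not described here. Ncr1 was at 1.30, 1.18 and 0.861 CPM and 2.63, 3.77 and 2.51 CPM (log2 fold change 1.40 ± 0.59, adjusted p = 0.0923). Klrk1 was at 1.22, 1.25 and 0.516 CPM and 2.72, 3.52 and 2.87 CPM (log2 fold change 1.59 ± 0.64, adjusted p = 0.0759). Ncr1 was called in a fit of only the groups compared and with DESeq2 (adjusted p = 0.00881 to 0.0112), and Klrk1 against the Rag2-/- controls, in a fit of only the groups compared and with DESeq2 (adjusted p = 0.00388 to 0.0347). Il7r and Kit, genes of group 3 ILC among other cells, had estimates of -0.79 and -0.62 and were not called. Kit was called lower against the Rag2-/- controls and without anti-CD40 mouse 8 (adjusted p = 0.00363 to 0.0437). Id2, required for all ILC and also made in epithelium, fell from 32.1, 29.9 and 27.6 CPM to 11.7, 16.03 and 16.8 CPM (log2 fold change -1.005 ± 0.25, adjusted p = 0.00701). Of 15 T-cell and 16 B-cell and plasma-cell genes tested, 0 were called in either direction by edgeR, with 3 and 2 at an unadjusted p under 0.05 and 0 and 1 called by DESeq2.

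Of 8 mast cell genes tested, 2 were higher and 0 lower, and both of those called encode proteases of the mucosal type. The list as a whole did not rise: it summed to 49.4 to 72.3 CPM in controls and 34.98 to 62.3 CPM in anti-CD40 mice. Against the Rag2-/- mice 2 members were higher and 1 lower. Mcpt1 was at 0.811, 0.368 and 0.688 CPM in controls and 3.01, 2.83 and 4.31 CPM in anti-CD40 mice (log2 fold change 2.44 ± 0.60, adjusted p = 0.00573), and Mcpt2 was at least 7.94-fold higher (adjusted p = 0.000545). The connective-tissue protease gene Cma1 was not called (-0.71 ± 0.74), nor was Cpa3 (1.26 ± 0.94).

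**Figure D3:**
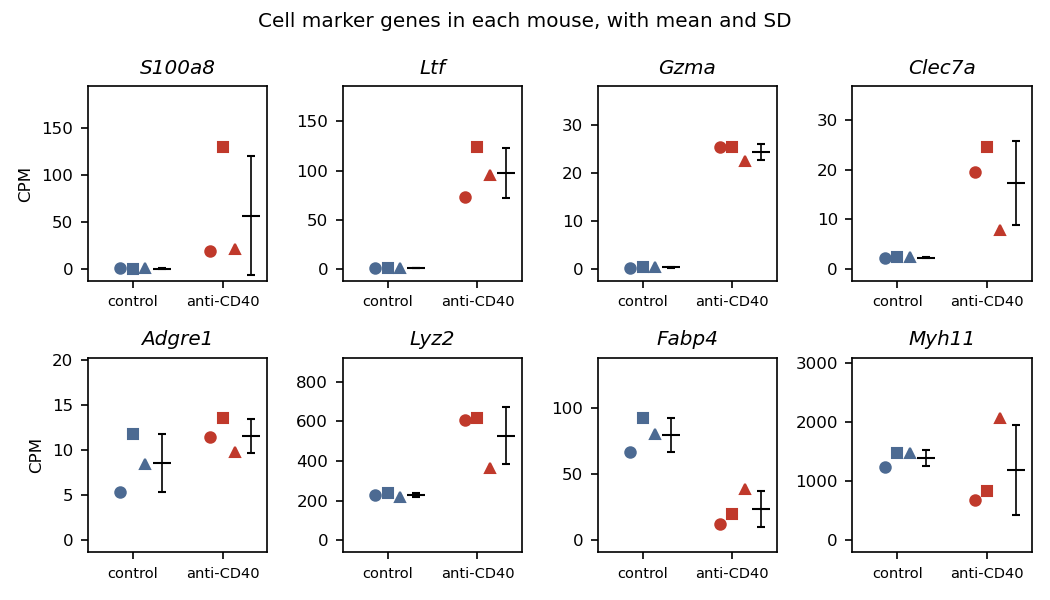
CPM of marker genes in control mice (blue: circle 2, square 3, triangle 4) and anti-CD40 mice (red: circle 6, square 7, triangle 8), with the mean and SD as a black bar on linear axes. S100a8 is high in mouse 7 (130.2 CPM), Gzma is even (22.5 to 25.5 CPM), Adgre1 overlaps between the groups, and Myh11 is highest in mouse 8.

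Targets of IL-22, the ILC cytokine that acts on epithelium, were among the lists with the largest shares called. Of 17 tested, 14 were higher and 0 lower (82.4% against 10.9% of all genes), with a median log2 fold change of 3.63. The list summed to 441 to 721 CPM in controls and 4235 to 6283 CPM in anti-CD40 mice, and 16 members were higher against the Rag2-/- mice. Socs3, the feedback inhibitor of cytokine receptors of this class, rose from 13.5, 17.4 and 52.7 CPM to 305, 446 and 285 CPM (log2 fold change 3.63 ± 0.63, adjusted p = 0.000363), and Saa3, an acute-phase protein, from 0.811, 0.884 and 2.07 CPM to 26.1, 36.8 and 23.8 CPM (log2 fold change 4.54 ± 1.27, adjusted p = 0.0136), the latter call lost without control mouse 3 (adjusted p = 0.0623). Chemokines and antimicrobial genes make up most of this list and are also members of other lists. The 3 members not called were Muc4, Reg3b and Reg3g.

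Epithelial defence genes changed unequally. Of 24 tested, 11 were higher and 2 lower (45.8% and 8.3%, against 10.9% and 10.7% of all genes). Nos2, the inducible nitric oxide synthase, was at 1.05, 1.84 and 2.93 CPM in controls and 522, 656 and 459 CPM in anti-CD40 mice (log2 fold change 8.14 ± 1.11, adjusted p = 3.78e-05). Duox2, the hydrogen peroxide generating dual oxidase, rose from 81.0, 71.2 and 102 CPM to 385, 654 and 633 CPM (log2 fold change 2.72 ± 0.32, adjusted p = 9.58e-06), and the phospholipase gene Pla2g2a from 92.1, 113 and 63.4 CPM to 1804, 1894 and 1269 CPM (log2 fold change 4.21 ± 0.54, adjusted p = 2.16e-05). The protease inhibitor Slpi rose from 3.65, 4.42 and 6.02 CPM to 83.2, 98.1 and 70.3 CPM (log2 fold change 4.16 ± 0.70, adjusted p = 0.000276). Reg3b, a bactericidal lectin of the mucosa, was at 7.05, 0.368 and 28.7 CPM in controls and 60.9, 108 and 11.8 CPM in anti-CD40 mice. Its groups overlapped, since control mouse 4 exceeded anti-CD40 mouse 8, and it was not called (log2 fold change 2.33 ± 1.10, adjusted p = 0.133). Reg3g had the same pattern (2.11, 0.295 and 8.69 CPM and 21.9, 49.6 and 5.81 CPM, log2 fold change 2.82 ± 1.14, adjusted p = 0.0784). Both turned on the controls used: Reg3b was called without control mouse 4 and against the Rag2-/- controls (adjusted p = 0.00189 to 0.0485), and Reg3g without control mouse 4 or anti-CD40 mouse 8, against the Rag2-/- controls and in a fit of only the groups compared (adjusted p = 0.00618 to 0.0458), with log2 fold changes of 8.47 and 6.17 against the Rag2-/- mice. Retnlb, encoding the goblet cell protein RELM-beta, rose from 6.57, 1.47 and 2.24 CPM to 58.9, 128 and 28.1 CPM (log2 fold change 4.38 ± 0.98, adjusted p = 0.00284).

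Ang4, a bactericidal ribonuclease of goblet and Paneth cells, fell from 14.8, 3.61 and 3.53 CPM to 0.0939, 0.171 and 0.215 CPM, at least 29.02-fold, but its call was lost without control mouse 2 or 3 or anti-CD40 mouse 6, 7 or 8 and against the Rag2-/- controls (adjusted p up to 0.425). Pigr, which carries antibodies across the epithelium, was at 3785, 3355 and 3588 CPM in controls and 3418, 2873 and 4380.0 CPM in anti-CD40 mice (-0.01 ± 0.20). The secreted lectin gene Reg4 was at 789, 563 and 479 CPM and 168, 180.4 and 287 CPM and was not called (log2 fold change -1.53 ± 0.60, adjusted p = 0.07).

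The secreted leucine-rich glycoprotein gene Lrg1 had, with Plet1, the smallest adjusted p of all genes tested. It was at 2.51, 2.58 and 3.01 CPM in controls and 369.6, 679 and 325 CPM in anti-CD40 mice (log2 fold change 7.40 ± 0.65, adjusted p = 1.21e-07), with a narrow range in controls. Fut2, the fucosyltransferase that decorates the epithelial surface, rose from 168, 165 and 369 CPM to 1247, 1342 and 976 CPM (log2 fold change 2.34 ± 0.29, adjusted p = 1.74e-05). The proteases Prss22 (chr17:23993534-23998100) and Mmp7 were among the genes with almost no reads in controls. Prss22 had 0 counts in every control and 6.39, 24.4 and 5.60 CPM in anti-CD40 mice, at least 50.4-fold higher (adjusted p = 0.000905). Mmp7, which activates defensins and is made by injured epithelium, was at least 65.0-fold higher, at 12.8, 23.4 and 10.8 CPM (adjusted p = 0.000127). The protease inhibitor gene Spink6 was at least 47.9-fold higher (adjusted p = 2.43e-05), with 12.1, 18.8 and 3.73 CPM. Mouse 7 was the highest in all of Lrg1, Prss22, Mmp7 and Spink6.

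Core markers of epithelial identity were mostly not called. Epcam was at 1677, 1437 and 1596 CPM in controls and 1820.1, 1733 and 1611 CPM in anti-CD40 mice, and Cdh1 differed by -0.00 ± 0.12 on the log2 scale. Of 15 core genes 2 were higher (13.3%, near the 10.9% of all genes). They were Krt20, a keratin of surface cells (540.3, 559 and 687 CPM against 1347, 1881 and 1310.3 CPM, log2 fold change 1.34 ± 0.29, adjusted p = 0.00256), and Vil1, encoding villin (log2 fold change 0.55 ± 0.14, adjusted p = 0.00865), whose call was lost without anti-CD40 mouse 7 (adjusted p = 0.0539). Among goblet genes the mucin Muc2 was at 1518, 1125 and 1238 CPM and 1122, 1205 and 1407 CPM (-0.06 ± 0.26), and Spdef and Atoh1, their transcription factors, differed by 0.05 ± 0.27 and -0.28 ± 0.27. Clca1, a secreted mucus protease, fell from 5277, 3871 and 4407 CPM to 1422, 1203 and 1749.7 CPM (log2 fold change -1.63 ± 0.47, adjusted p = 0.0158), a call lost without anti-CD40 mouse 6 or 7 (adjusted p up to 0.0835).

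Absorptive colonocyte genes were mostly lower where they changed. Of 31 tested, 11 were lower and 1 higher (35.5% lower against 10.7% of all genes), with a median log2 fold change of -0.43. Against the Rag2-/- controls 8 were lower and 3 higher. Cyp2c55, a cytochrome P450 of the colon and the largest of the 12 falls named by rule (chr19:39007019-39042693), was at 302, 396 and 205 CPM in controls and 0, 0 and 0.431 CPM in anti-CD40 mice (log2 fold change -10.76 ± 1.37, adjusted p = 2.13e-05). Abcb1a, the drug efflux pump P-glycoprotein, fell from 523, 633 and 533 CPM to 54.5, 38.3 and 130.2 CPM (log2 fold change -2.92 ± 0.41, adjusted p = 4.37e-05). The bicarbonate transporter Slc4a4 fell from 261, 292 and 200.2 CPM to 67.9, 36.8 and 60.4 CPM (log2 fold change -2.19 ± 0.52, adjusted p = 0.00474), and the sulfotransferase Sult1a1 from 299.6, 252 and 267 CPM to 78.8, 28.4 and 106 CPM (log2 fold change -1.94 ± 0.44, adjusted p = 0.00302). Mouse 7 was the lowest and mouse 8 the highest treated mouse for Abcb1a and Sult1a1.

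Other transport genes did not follow. The chloride exchanger Slc26a3 was at 985, 991 and 1362 CPM and 1157, 770.3 and 634 CPM, and Car4 and Aqp8 differed by -0.32 ± 0.44 and -0.43 ± 0.68, none of them called. Carbonic anhydrase gene Car1 was lower (479, 774 and 537 CPM against 102, 78.8 and 86.5 CPM, log2 fold change -2.74 ± 0.85, adjusted p = 0.0228) without overlap, yet its call was lost without control mouse 3 or anti-CD40 mouse 6, 7 or 8 (adjusted p up to 0.0973). Guca2a, encoding guanylin, was lower (481, 435 and 411 CPM against 88.9, 61.4 and 111 CPM, log2 fold change -2.34 ± 0.72, adjusted p = 0.0219), and its call was lost without anti-CD40 mouse 6 or 7 and against the Rag2-/- controls (adjusted p up to 0.109). The water channel Aqp4 was the member called higher (256, 264 and 231 CPM against 802, 863 and 667 CPM, log2 fold change 1.64 ± 0.53, adjusted p = 0.0287), and lost its call without control mouse 2, 3 or 4 or anti-CD40 mouse 6 or 7 (adjusted p up to 0.0914). The count of lower members was 4 without anti-CD40 mouse 7 and 7 without control mouse 3 or anti-CD40 mouse 6.

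The other largest falls lay mostly outside the lists. The manganese exporter gene Slc30a10 (chr1:185454848-185468762) fell from 28.6, 33.2 and 25.7 CPM to 0.376, 0.0857 and 0.861 CPM (log2 fold change -5.96 ± 1.18, adjusted p = 0.00118). Ces1e, a carboxylesterase, fell from 9.65, 7.66 and 4.65 CPM to 0.0939, 0.171 and 0.287 CPM (log2 fold change -5.19 ± 0.74, adjusted p = 5.11e-05). Gsdmc3 and Gsdmcl2, gasdermins of a gene cluster on chromosome 15, had log2 fold changes of -4.55 ± 0.59 and -4.504 ± 0.74, with 13.3, 3.17 and 6.39 CPM and 1.97, 0.514 and 0.287 CPM left in anti-CD40 mice. Odf3b, Minar1, Tmem35a, Itih2, Galnt17 and Klk15 made up the 12 with these and Ang4, with log2 fold changes between -4.69 (Odf3b) and -3.85 (Galnt17). Of Klk15, 54.7% of the exon bases are overlapped by another gene model.

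**Figure D4:**
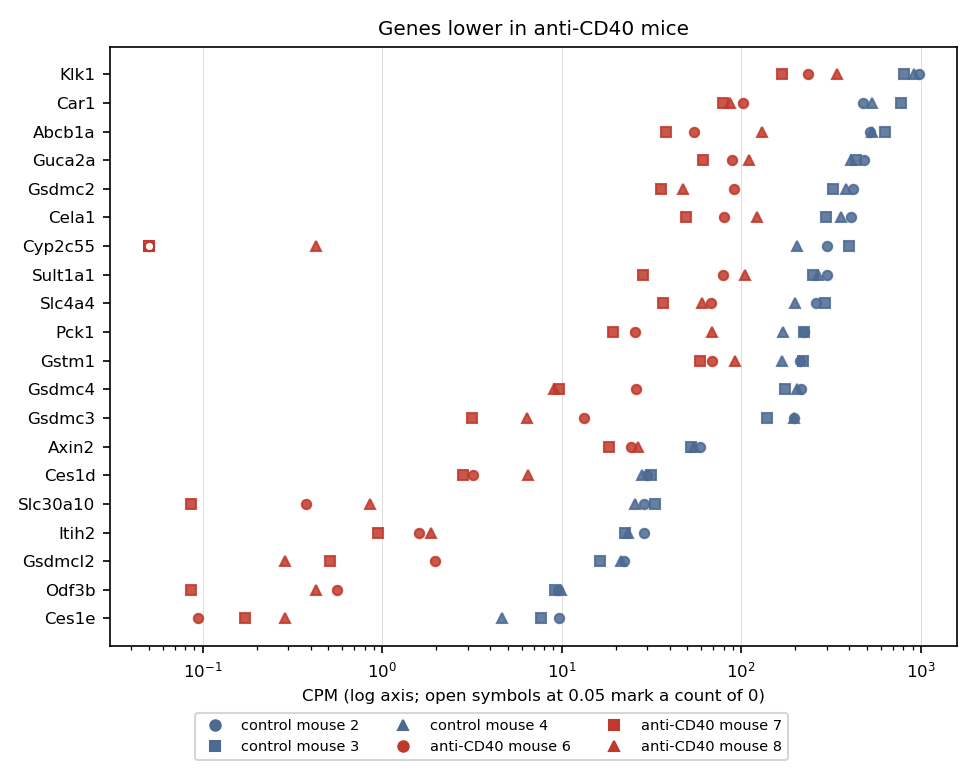
CPM of 20 genes lower in anti-CD40 mice (red) than in controls (blue), chosen after their values were seen, in each mouse on a log axis. Red and blue points do not overlap in any row. Cyp2c55 has 0 counts in mice 6 and 7.

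Crypt base and Wnt target genes were lower where they changed. Of 16 tested, 0 were higher and 5 lower (31.25% lower, against 10.7% of all genes). Axin2, a direct Wnt target, fell from 58.8, 52.5 and 54.6 CPM to 24.2, 18.3 and 26.6 CPM (log2 fold change -1.26 ± 0.18, adjusted p = 5.01e-05). Lgr5, the stem cell marker, was at 18.1, 9.28 and 4.48 CPM in controls and 6.95, 7.89 and 11.9 CPM in anti-CD40 mice, with overlapping groups. The other 4 calls, Rnf43, Znrf3, Sox9 and Tcf7, were lost in several fits, among them the comparison with the Rag2-/- mice, and the count was 1 without anti-CD40 mouse 7, 2 without control mouse 3 or anti-CD40 mouse 6, without the filter on low counts or against the Rag2-/- controls and 3 without control mouse 2 or 4. The calls were lost without control mouse 2 or anti-CD40 mouse 7, against the Rag2-/- controls and without the filter on low counts (adjusted p up to 0.0808) for Rnf43 and without control mouse 3 or anti-CD40 mouse 6 or 7 and against the Rag2-/- controls (adjusted p up to 0.127) for Znrf3, negative regulators of Wnt receptors. Of 25 proliferation genes 2 were higher (8.0%, below the 10.9% of all genes). These were Rrm2, lost without control mouse 2, 3 or 4 or anti-CD40 mouse 6 or 7 (adjusted p up to 0.219), and the inhibitor Cdkn1a, lost without control mouse 3 or 4 or anti-CD40 mouse 7 or 8 and against the Rag2-/- controls (adjusted p up to 0.138). Mki67 was at 229, 213 and 183 CPM in controls and 311, 272 and 184 CPM in anti-CD40 mice, with mouse 8 the lowest treated. This list depended on the controls used, with counts of 0 without control mouse 3 or 4 or anti-CD40 mouse 7, 1 without control mouse 2 or anti-CD40 mouse 6, 9 in a fit of only the groups compared, 15 with DESeq2 and 16 against the Rag2-/- controls.

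Genes of injured or regenerating epithelium included strong rises. Ly6a, also known as Sca-1, was at 115, 154 and 328 CPM in controls and 1634, 1680.4 and 1159 CPM in anti-CD40 mice (log2 fold change 2.91 ± 0.48, adjusted p = 0.000229). Plet1, a marker of epithelial progenitors, rose from 1.38, 1.92 and 1.55 CPM to 82.1, 163 and 174 CPM (log2 fold change 6.42 ± 0.55, adjusted p = 1.21e-07), and Sprr1a, a cornified envelope protein of stressed epithelium, from 1.54, 1.18 and 2.84 CPM to 31.0, 38.4 and 42.8 CPM (log2 fold change 4.35 ± 0.59, adjusted p = 3.53e-05). Ly6d was at least 28.8-fold higher (adjusted p = 0.00043). In all, 7 of 22 members were higher and 2 lower (31.8% and 9.1%, against 10.9% and 10.7% of all genes). Areg, Anxa1 and Clu, also used as markers of this state, differed by 0.59 ± 0.50, 0.44 ± 0.25 and -0.56 ± 0.43 and were not called.

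Tight junction genes were higher for 6 of 17 and lower for 1 (35.3% and 5.9%, against 10.9% and 10.7% of all genes). Cldn23 and Cldn7 rose by 1.05 ± 0.28 and 0.64 ± 0.15. Ocln, encoding occludin, fell from 189.7, 186 and 209 CPM to 135, 110.01 and 147 CPM (log2 fold change -0.58 ± 0.15, adjusted p = 0.00887), a call lost without anti-CD40 mouse 7 (adjusted p = 0.0765). The pore-forming claudin gene Cldn2 was at 281, 292 and 324 CPM and 171, 158 and 167 CPM, without overlap but not called (log2 fold change -0.85 ± 0.40, adjusted p = 0.124).

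Tuft cell genes were lower for 5 of 10 (50%, against 10.7% of all genes). Dclk1, a kinase that marks these chemosensory cells, fell from 10.8, 11.3 and 10.7 CPM to 5.54, 4.72 and 6.39 CPM (log2 fold change -0.98 ± 0.19, adjusted p = 0.000912), and the channel Trpm5 from 2.35, 2.28 and 2.15 CPM to 1.13, 0.514 and 0.789 CPM (log2 fold change -1.48 ± 0.42, adjusted p = 0.0138). Against the Rag2-/- mice neither was called, with log2 fold changes of -0.43 and -0.95 (adjusted p = 0.0959 and 0.104), and Trpm5 also lost its call without anti-CD40 mouse 7 (adjusted p = 0.0907). The count was 2 without anti-CD40 mouse 7 and 3 against the Rag2-/- controls or with DESeq2. Enteroendocrine genes were higher for 4 of 14 (28.6%, against 10.9% of all genes). The hormone gene Gcg rose from 53.3, 52.1 and 49.2 CPM to 101, 89.3 and 111 CPM (log2 fold change 0.96 ± 0.26, adjusted p = 0.0111), and Sct, encoding secretin, and Cck rose by 1.59 ± 0.36 and 3.03 ± 0.62. The fourth call, Neurod1, was lost without control mouse 3 or 4 or anti-CD40 mouse 6, 7 or 8, with DESeq2, against the Rag2-/- controls and without the filter on low counts (adjusted p up to 0.393). Pyy and Insl5 differed by 0.16 ± 0.35 and 0.11 ± 0.57.

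Of 12 smooth muscle genes 0 were called by edgeR, with 0 at an unadjusted p under 0.05 and 0 called by DESeq2. The count of lower genes was 2 without anti-CD40 mouse 8 and 4 against the Rag2-/- controls. Myh11, the smooth muscle myosin, was at 1244, 1472 and 1481 CPM in controls and 678, 835 and 2064 CPM in anti-CD40 mice, below all controls in mice 6 and 7 and above them in mouse 8. Enteric neuron and glia genes were lower for 4 of 13 (30.8%, against 10.7% of all genes), all highest in mouse 8 among the treated mice. Elavl4, a neuronal RNA-binding protein, was at 6.24, 5.89 and 5.08 CPM and 1.69, 1.71 and 4.45 CPM (log2 fold change -1.11 ± 0.31, adjusted p = 0.014), and its call was lost without anti-CD40 mouse 6 or 7, against the Rag2-/- controls and in a fit of only the groups compared (adjusted p up to 0.221). That count was 0 without anti-CD40 mouse 6 or 7, 1 without control mouse 3 or 4, 2 without control mouse 2, without the filter on low counts, against the Rag2-/- controls or in a fit of only the groups compared and 8 without anti-CD40 mouse 8. Adipocyte genes were lower for 4 of 9 (44.4%, against 10.7% of all genes), and their sum was 473 to 667 CPM in controls and 66.7 to 229 CPM in anti-CD40 mice. Fabp4, a lipid-binding protein of fat and endothelium, fell from 66.6, 92.3 and 80.1 CPM to 12.4, 20.1 and 39.2 CPM (log2 fold change -1.73 ± 0.34, adjusted p = 0.00107), and Pck1, which is also made in epithelium, from 225, 223 and 170.3 CPM to 25.6, 19.3 and 68.4 CPM (log2 fold change -2.44 ± 0.57, adjusted p = 0.00426). Of 5 tested genes of pancreatic enzymes 2 were lower, Clps (9.65, 5.08 and 4.04 CPM against 0.47, 0.429 and 0.861 CPM) and the elastase gene Cela1, which fell from 407, 296 and 361 CPM to 80.3, 49.5 and 123 CPM (log2 fold change -2.07 ± 0.40, adjusted p = 0.00102). Among stress genes that mark RNA handling, 1 of 11 was higher (Zfp36, 0.96 ± 0.31, lost without control mouse 2 or 3 or anti-CD40 mouse 7 and against the Rag2-/- controls (adjusted p up to 0.122)) and 1 lower (Hspa1a, -1.14 ± 0.37, lost without control mouse 3 or 4 or anti-CD40 mouse 6 or 7, against the Rag2-/- controls and in a fit of only the groups compared (adjusted p up to 0.322)). The shares of stress genes called (9.1% each way) were near those of all genes (10.9% and 10.7%). The part of unequal sampling of muscle and fat in the other results was not tested.

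Of 26 fibroblast and matrix genes 4 were higher and 3 lower (15.4% and 11.5%), near the shares of all genes (10.9% and 10.7%). The count of higher genes was 1 without control mouse 3, 2 without control mouse 2 or 4 or anti-CD40 mouse 6 or 7 and 7 in a fit of only the groups compared or with DESeq2. The 4 higher were matrix metalloproteinases, Mmp7, Mmp3 (2.14 ± 0.72), Mmp10 (2.88 ± 0.92) and Mmp12 (1.62 ± 0.47). The call was lost for Mmp3 without control mouse 2, 3 or 4 or anti-CD40 mouse 6 or 7 (adjusted p up to 0.112), for Mmp10 without control mouse 2, 3 or 4 or anti-CD40 mouse 7 (adjusted p up to 0.133) and for Mmp12 without control mouse 3 or anti-CD40 mouse 6 (adjusted p up to 0.0917). Lum, encoding lumican, fell from 68.4, 100.2 and 93.6 CPM to 32.3, 46.8 and 51.4 CPM (log2 fold change -1.01 ± 0.23, adjusted p = 0.00416). The collagens Col1a1, Col1a2 and Col3a1 differed by 0.52 ± 0.39, 0.16 ± 0.27 and -0.21 ± 0.26 and were not called.

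Of 21 genes of fatty acid oxidation 2 were higher and 3 lower, near the shares of all genes. Ppara, the fatty acid sensing nuclear receptor, fell from 7.22, 6.56 and 7.06 CPM to 3.10, 2.06 and 3.73 CPM (log2 fold change -1.22 ± 0.27, adjusted p = 0.00298), and Acadl, a dehydrogenase of long-chain fatty acids, rose from 199, 223 and 250.4 CPM to 417, 408 and 407 CPM (log2 fold change 0.87 ± 0.15, adjusted p = 0.000344).

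The anti-CD40 effect was then compared with that of TRUC colitis, which also arises without T and B cells, as the difference of the log2 fold changes. By the labels, strain and genotype go with the model, although Rag1, Rag2, H2-Ea-ps and Trim12a did not separate the 2 pairs of groups. Each model has its own control group, and the part of the control group in a difference cannot be told apart from that of the model. In TRUC mice 4163 genes were higher (22.4%) and 4361 lower (23.4%) than in Rag2-/- mice. Of the genes higher in anti-CD40 mice, 1610 were also higher in TRUC (79.3% of the anti-CD40 calls, 38.7% of the TRUC calls), and of those lower, 1432 were also lower (72.1% and 32.8%). Opposite calls were made for 18 genes higher and 13 genes lower in anti-CD40 mice. The difference itself passed the threshold for 107 genes above 0 (0.575%) and 98 below 0 (0.526%), among them 8 and 14 of the 638 list genes tested.

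Reg3b and Reg3g had the largest differences of the list genes. Reg3b was at 669 to 1068 CPM in TRUC mice and 0.0765 to 0.266 CPM in Rag2-/- mice (log2 fold change 12.32 ± 1.85), against 2.33 in the anti-CD40 comparison, a difference of -9.98 ± 2.11 (adjusted p = 0.0242). It lost its call without control mouse 4 or anti-CD40 mouse 8 or Rag2-/- mouse 1, 2 or 4 (adjusted p up to 0.0893). Against the same Rag2-/- mice as TRUC, anti-CD40 mice had log2 fold changes of 8.47 for Reg3b and 6.17 for Reg3g, against 12.32 and 10.67 in TRUC mice. IFN-γ response genes named above had differences smaller than their errors: Cxcl9 changed by 6.85 and 7.01 ± 1.42 in the anti-CD40 and TRUC comparisons, Ido1 by 8.77 and 8.04 ± 1.87, and Iigp1 by 6.05 and 5.66 ± 1.12, with differences of -0.16 ± 2.24, 0.73 ± 2.73 and 0.39 ± 1.35. S100a8 changed by 7.83 and 10.50 ± 1.11 (difference -2.67 ± 2.31, adjusted p = 0.617). Rel rose less than in TRUC (1.82 and 3.45 ± 0.25, difference -1.62 ± 0.34, adjusted p = 0.0204), a call lost without control mouse 4 or anti-CD40 mouse 8 or Rag2-/- mouse 2 (adjusted p up to 0.0647).

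Clock genes differed between the models, and so did their levels in the control groups. Nr1d1, a repressor of the circadian clock, was at 14.6, 12.2 and 9.29 CPM in controls and 9.77, 18.2 and 22.4 CPM in anti-CD40 mice, but at 108 to 204 CPM in Rag2-/- mice and 5.62 to 8.45 CPM in TRUC mice. Dbp, Tef and Nr1d2, which peak near it in the daily cycle, had differences of 5.43 ± 0.72, 3.45 ± 0.53 and 3.25 ± 0.37. Within the anti-CD40 comparison 4 of 15 clock genes were lower, Cry2 (31.3, 34.2 and 34.6 CPM against 9.68, 7.97 and 13.3 CPM, log2 fold change -1.69 ± 0.30, adjusted p = 0.000467), Hlf (-1.89 ± 0.34), Per3 (-1.47 ± 0.41) and Arntl (-0.55 ± 0.18). The call of Per3 was lost without anti-CD40 mouse 7 (adjusted p = 0.091), and that of Arntl without control mouse 3 or 4 or anti-CD40 mouse 6, 7 or 8, against the Rag2-/- controls and without the filter on low counts (adjusted p up to 0.13). The time of day of sampling is not in the labels, and its part was not tested.

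**Figure D5:**
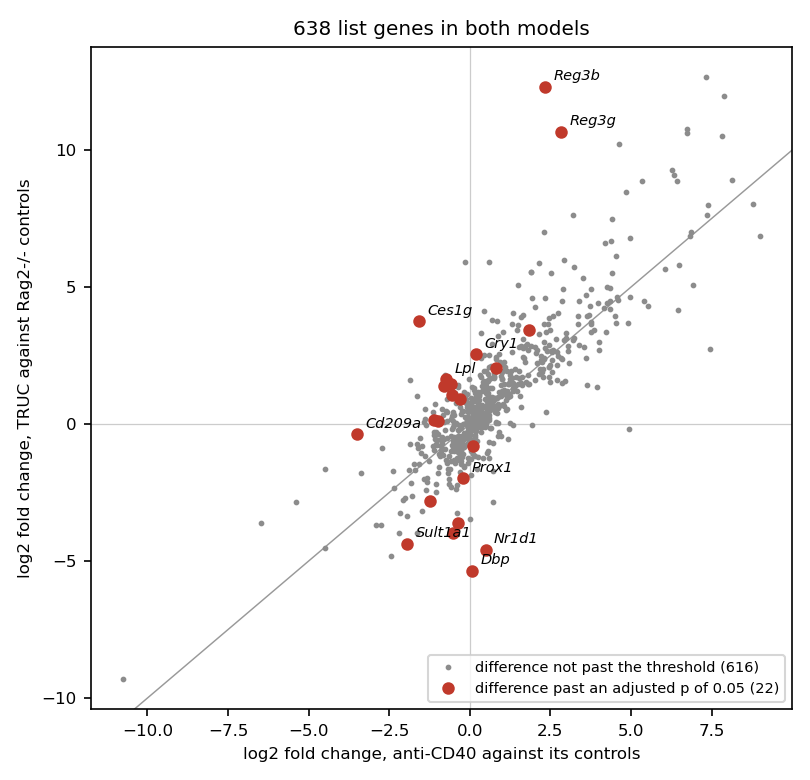
Log2 fold changes of 638 list genes in anti-CD40 mice against their controls (horizontal) and in TRUC mice against Rag2-/- controls (vertical), with the line of equal change. The 22 genes with a difference past the threshold are red. Reg3b and Reg3g lie far above the line, and the clock genes Dbp and Nr1d1 far below it.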

How the data were processed

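Colon RNA of 29 mice in 9 groups was sequenced by the authors as poly(A)-selected paired-end libraries, 1 per mouse. The submitters' processing notes name Trimmomatic, HISAT2, HTSeq and the build GRCm38. Versions, the annotation release and strand handling are not given in the sources used here. The deposited values are raw counts per gene, with 54532 genes and 92 spike-in rows that hold a total of 0 counts. Groups were taken from the labels. Of the genes, 54409 were matched by Ensembl identifier to a symbol and to GENCODE M21 for positions, exon overlap and 50-base windows shared with other genes.

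The 18616 genes whose counts averaged 3 or more across the 29 mice were tested in 1 edgeR (4.0.16, R 4.3.3) quasi-likelihood fit of all 9 groups with TMM scaling and no covariate, for the contrast of anti-CD40 mice against the controls labelled Rag1-/-. A second contrast subtracted the TRUC effect. Calls are at a Benjamini-Hochberg adjusted p under 0.05 over all genes, and standard errors were derived from the fold change and its F statistic. The fit was checked on simulated counts. An exact permutation test of 3 mice against 3 cannot go below 0.10 and was not used. CPM values are counts per 1000000 of the TMM-normalised library size. Where a group had at most 3 counts in every library, the fold is a lower bound against 3 counts per library. Library totals of the 6 mice were 11079556 to 14266555.

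Text names genes of 42 lists (638 of 676 genes tested), the 12 largest rises and falls among called genes without overlap and with a mean of at least 5 CPM in the higher group, and the 8 largest differences from TRUC on each side. The members and lists were chosen with earlier results of these data known. A few families named under other observations, and the genes of the plot of falls, were chosen after their values were seen. Some list genes are counted but not reported by name here. Alternatives were RLE scaling, no filter, filterByExpr, DESeq2 (1.42.0), only the compared groups, a threshold of 0.01, the Rag2-/- controls and leaving out each mouse. Motifs were searched on both strands in RefSeq windows of GRCm38.p6. Tables were made in Python (3.11.15) with pandas (2.3.3).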

Additional observations from a re-analysis of the deposited data

Results flagged for a closer look

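Among the list genes whose anti-CD40 and TRUC effects differed past the threshold, those with the 8 largest differences on each side are given here. The difference itself was tested by edgeR's quasi-likelihood test of the anti-CD40 minus TRUC log2 fold changes, adjusted over all genes. Each model has its own controls, and no cause was tested.

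The 4 largest differences above 0 belong to output genes of the circadian clock. Dbp, a clock-controlled transcription factor, had a log2 fold change of 0.08 in anti-CD40 mice and -5.35 in TRUC mice (difference 5.43 ± 0.72, adjusted p = 0.000156). The differences were 5.07 ± 0.59 for Nr1d1 (0.49 and -4.58), 3.45 ± 0.53 for Tef (-0.51 and -3.96) and 3.25 ± 0.37 for Nr1d2 (-0.37 and -3.62). Cry1, a repressor with a later phase, differed the other way (0.18 and 2.55, difference -2.37 ± 0.38). Their range over the Rag2-/- mice was 30.5 to 50.8 CPM for Dbp, against 2.68, 3.39 and 1.55 CPM in the controls labelled Rag1-/-. All of these calls held in each fit that left out 1 mouse.

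The sulfotransferase Sult1a1 fell in both models and less in anti-CD40 mice (-1.94 and -4.36, difference 2.42 ± 0.59), as did Ppara (-1.22 and -2.82, difference 1.60 ± 0.39). Prox1, a transcription factor of lymphatic and enteroendocrine cells, had a log2 fold change of -0.21 in anti-CD40 mice and -1.96 in TRUC mice (difference 1.75 ± 0.30, adjusted p = 0.00375). Relb differed by 0.89 ± 0.22 (0.09 and -0.80). The calls were lost for Sult1a1 without control mouse 2, 3 or 4 or anti-CD40 mouse 6 or 8 or Rag2-/- mouse 1, 2 or 4 or TRUC mouse 2, 3 or 4 (adjusted p up to 0.176), for Ppara without control mouse 2, 3 or 4 or anti-CD40 mouse 6 or 8 or Rag2-/- mouse 1, 2 or 4 or TRUC mouse 2, 3 or 4 and without the filter on low counts (adjusted p up to 0.167) and for Relb without control mouse 3 or 4 or anti-CD40 mouse 6 or 8 or Rag2-/- mouse 1, 2 or 4 or TRUC mouse 2, 3, 4 or 5 (adjusted p up to 0.176), and that of Prox1 held.

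Reg3b had the largest difference below 0 (2.33 in anti-CD40 mice and 12.32 in TRUC mice, difference -9.98 ± 2.11, adjusted p = 0.0242), followed by Reg3g (2.82 and 10.67, difference -7.85 ± 1.93, adjusted p = 0.045). Against the Rag2-/- mice the anti-CD40 changes were 8.47 and 6.17. The carboxylesterase gene Ces1g was at 0.973, 1.62 and 1.12 CPM in controls and 0.564, 0.257 and 0.431 CPM in anti-CD40 mice but at 0.459 to 0.604 CPM in Rag2-/- mice and 4.06 to 12.3 CPM in TRUC mice, with a difference of -5.31 ± 0.72 (adjusted p = 0.000198). Its fall in anti-CD40 mice (log2 fold change -1.56 ± 0.55, adjusted p = 0.0448) was lost without control mouse 3 or 4 or anti-CD40 mouse 6, 7 or 8, with DESeq2, against the Rag2-/- controls and without the filter on low counts (adjusted p up to 0.723). Lpl, the lipoprotein lipase, had log2 fold changes of -0.73 and 1.65 (difference -2.37 ± 0.45, adjusted p = 0.00834).

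Myeloid genes also stood below 0. Cd209a (-3.49 and -0.37, difference -3.12 ± 0.76), Clec9a (-0.81 and 1.39, difference -2.21 ± 0.51) and Vcan, encoding a matrix proteoglycan also made by monocytes (-0.59 and 1.47, difference -2.06 ± 0.44), were called, with adjusted p = 0.0447, 0.0346 and 0.0247. These calls were lost for Cd209a without control mouse 2, 3 or 4 or anti-CD40 mouse 6 or 8 or Rag2-/- mouse 1, 2 or 4 or TRUC mouse 3, 4 or 5 and without the filter on low counts (adjusted p up to 0.174), for Clec9a without control mouse 2, 3 or 4 or anti-CD40 mouse 6 or 8 or Rag2-/- mouse 1 or 2 or TRUC mouse 2, 3, 4 or 5 (adjusted p up to 0.111) and for Vcan without control mouse 3 or anti-CD40 mouse 8 or Rag2-/- mouse 1 or 2 or TRUC mouse 3 (adjusted p up to 0.101). Reg3g lost its call without control mouse 3 or 4 or anti-CD40 mouse 6 or 8 or Rag2-/- mouse 1, 2 or 4 or TRUC mouse 2, 3, 4 or 5 (adjusted p up to 0.243), whereas the differences of Ces1g and Lpl held.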

How the results depend on the processing

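The counts of 2029 higher and 1986 lower genes kept within 1.5 times under RLE scaling (2041 and 1968), no filter (1852 and 1404), filterByExpr (2150 and 1913), only the compared groups (2126 and 1851), DESeq2 (2311 and 1747) and the Rag2-/- controls (2301 and 2202). At a threshold of 0.01 they were 975 and 877. Leaving out 1 mouse gave 928 to 2233 higher and 821 to 2514 lower genes, lowest without anti-CD40 mouse 7. The difference from TRUC (107 above and 98 below 0) gave 575 and 696 genes in a fit of only the compared groups, 829 and 965 with DESeq2, 22 and 19 at 0.01, and 32 to 165 and 26 to 135 without 1 mouse, so these counts depend on the tool and on single mice; the cause was not tested. Of 265 genes named in the text, 178 were called, and 45 of these lost the call in at least 1 fit without a mouse, 22 against the Rag2-/- controls and 45 under another setting, the threshold of 0.01 included. Of the named genes not called, 5 were called in at least 1 fit without a mouse, 10 against the Rag2-/- controls and 16 under another setting, among them Cldn2, H2-M3, H2-T23, Il22ra2, Isg15, Pecam1 and Reg4 in a fit of only the compared groups or with DESeq2. Against the Rag2-/- controls the log2 fold change turned to 0.99 for Arntl, -1.26 for Cd163, -3.95 for Dbp, -3.23 for Nr1d1 and -0.027 for Tlr7. Calls of genes with few counts are limited by depth. No paired analysis was possible because the replicate numbers of the groups compared (6, 7 and 8 against 2, 3 and 4) share no value.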

Other observations

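Some gene families that no list covers are given here as values. They were chosen after the values were seen.

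Gasdermin genes gave falls and a rise. Of the cluster on chromosome 15, Gsdmc2 was at 418, 324 and 382 CPM in controls and 90.9, 35.9 and 47.4 CPM in anti-CD40 mice, and Gsdmc4 at 217, 175 and 204 CPM and 25.9, 9.69 and 9.11 CPM (log2 fold changes -2.69 ± 0.41 and -3.74 ± 0.54). Members of the cluster share 51.3% (Gsdmc2) and 39.0% (Gsdmc4) of their 50-base windows with other genes. Gsdmd, the pore-forming effector of pyroptosis, was higher (182, 175 and 227 CPM against 355, 381 and 333 CPM, log2 fold change 0.87 ± 0.21, adjusted p = 0.00553).

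Toll-like receptor genes were higher for Tlr2 (1.67 ± 0.35, adjusted p = 0.00195), Tlr3 (1.05 ± 0.19, 0.00058), Tlr4 (1.42 ± 0.20, 4.13e-05) and Tlr9 (2.17 ± 0.61, 0.0135). The call of Tlr9 was lost without control mouse 2 or anti-CD40 mouse 7 and against the Rag2-/- controls (adjusted p up to 0.105), and Tlr7, also called higher, lost its call without control mouse 2, 3 or 4 or anti-CD40 mouse 6 or 7, with DESeq2 and against the Rag2-/- controls (adjusted p up to 0.977). Tlr5, the flagellin receptor, was lower, from 4.30, 5.01 and 4.22 CPM to 1.32, 1.20 and 1.94 CPM (log2 fold change -1.59 ± 0.31, adjusted p = 0.00118). Among C-type lectin genes of myeloid cells, log2 fold changes were 4.20 ± 1.24 for Clec4d, 1.37 ± 0.33 for Clec4n and 2.92 ± 0.52 for Clec7a, the receptor for beta-glucan. That of Clec4d was lost without control mouse 4 or anti-CD40 mouse 7 (adjusted p up to 0.0922).

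Among single genes of detoxifying enzymes, picked as examples and not counted as a group, Gstm1, a glutathione transferase, fell from 214, 222 and 169 CPM to 69.0, 58.8 and 91.8 CPM (log2 fold change -1.46 ± 0.24, adjusted p = 0.000239), and Gstm3 and Gstm6 had log2 fold changes of -1.65 ± 0.53 and -1.43 ± 0.30, that of Gstm3 losing its call without control mouse 3 or anti-CD40 mouse 7 and against the Rag2-/- controls (adjusted p up to 0.194). Ces1d fell from 29.8, 31.6 and 28.0 CPM to 3.19, 2.83 and 6.46 CPM (log2 fold change -2.82 ± 0.40, adjusted p = 6.03e-05), whereas Ces2e was higher (65.7, 64.8 and 72.6 CPM against 239, 253 and 220.5 CPM, log2 fold change 1.81 ± 0.30, adjusted p = 0.000211). The tissue kallikrein gene Klk1 fell from 972, 811 and 913 CPM to 236, 168 and 339.7 CPM (log2 fold change -1.86 ± 0.26, adjusted p = 4.57e-05).

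Of amino acid transporter genes, Slc7a11, which imports cystine, was at 4.62, 2.43 and 1.98 CPM in controls and 10.1, 14.1 and 6.32 CPM in anti-CD40 mice (log2 fold change 1.75 ± 0.58, adjusted p = 0.0328), a call lost without control mouse 3 or 4 or anti-CD40 mouse 6 or 7 (adjusted p up to 0.155). Slc7a9 was at 5.43, 2.73 and 4.73 CPM in controls and 33.0, 27.5 and 20.8 CPM in anti-CD40 mice (log2 fold change 2.66 ± 0.42, adjusted p = 0.000143). The acute-phase serpin gene Serpina3n rose from 5.43, 8.84 and 7.83 CPM to 24.9, 37.2 and 47.0 CPM (log2 fold change 2.30 ± 0.42, adjusted p = 0.000599).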
